A study of Homo sapiens with 6 samples.

Results

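The genes followed here join p53 to autophagy: DRAM1, DRAM2, TP53INP1, ULK1, ULK2, SQSTM1, GABARAPL1 and MAP1LC3B. They were chosen by name, with earlier results of these data known. Each was read from the probe set that the platform annotation assigns to that gene alone. All 8 had exactly 1 such probe set, among 18404 genes measured in this way. The cells were H226, an established human lung squamous carcinoma line that carries a doxycycline-controlled shRNA against p63, a transcription factor of the p53 family. RNA was hybridised to 6 Affymetrix HuGene 1.0 ST arrays in 3 groups of 2. Nutlin-3 cells had the shRNA off and received 10 µM Nutlin-3, an MDM2 blocker that stabilises p53, for 12 h. The shRNA was switched on in shp63 ON cells, by doxycycline at 1 µg/mL over 48 h. Control cells had the shRNA off and grew untreated. Their labels name no solvent and no treatment time, so Nutlin-3 cannot be told apart from either. All groups carry the same shRNA cassette. No group received doxycycline without the p63 shRNA or for the time of the Nutlin-3 treatment, so knockdown, doxycycline and duration cannot be told apart. The gene targeted by the shRNA was not analysed here.

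Autophagy wraps cytoplasm in a double membrane and delivers it to the lysosome. It begins with the kinases ULK1 and ULK2, and needs small proteins of the ATG8 family, among them MAP1LC3B (LC3B) and GABARAPL1, which are coupled to the growing membrane. SQSTM1 (p62) is a receptor that binds ubiquitinated cargo and an ATG8 protein together. p53 is known to activate DRAM1, which encodes a lysosomal membrane protein that promotes autophagy, and TP53INP1, whose product binds ATG8 proteins. DRAM2 encodes a lysosomal relative of DRAM1.

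Values are log2 intensities as deposited, so a difference of 1 is a doubling. Precision is limited by the number of arrays, and there is no depth to report. Arrays of the same group correlated across genes at r = 0.997 (Nutlin-3), 0.997 (shp63 ON) and 0.998 (control). The labels do not say that the arrays of a group came from separate cultures, so the p-values may measure technical spread alone. An exact permutation test of 2 arrays against 2 cannot give a two-sided p below 0.333. Tests are therefore limma's moderated test fitted across all 18404 genes, with Benjamini-Hochberg adjustment over all of them and a threshold of 0.05. CDKN1A (p21), a p53 target that checks the Nutlin-3 treatment, stood at 11.85 and 11.84 with Nutlin-3, against 10.21 and 10.30 in control. In shp63 ON it did not fall: its difference from control was 0.13 (limma adjusted p = 0.15), passing in 3 of 18 alternatives. MDM2, the other p53 target checked, had 12.47 and 12.93 with Nutlin-3 and 10.92 and 11.04 in shp63 ON, against 11.44 and 11.37 in control. It rose with Nutlin-3 by 1.30 (limma adjusted p = 0.000718, and 0.0721 by analysis of variance without moderation) and fell in shp63 ON by 0.43 (adjusted p = 0.0455), a call lost in 8 of 18 alternatives, among them without either control or either shp63 ON array (adjusted p up to 0.229 over the 18). Of the squamous and basal epithelial markers, 10 of 12 were measured, with KRT5 between 11.87 and 12.39 on all arrays. Other members of that list moved more, DSG3 most with Nutlin-3 (2.03). Among markers of other cell types, PTPRC (leukocytes) stayed between 4.24 and 4.48 and PECAM1 (endothelium) between 4.84 and 5.22, whereas CD14 (monocytes) ran from 5.93 to 6.92 and CDH5 (endothelium) from 8.07 to 9.21. The mesothelial marker MSLN stood between 9.76 and 10.09 on all arrays, and ITLN1 of the same list between 4.26 and 4.65. Of the fibroblast markers, COL1A1 stood between 8.18 and 8.40 and DCN between 3.94 and 4.05. DSG3, CD14, CDH5, MSLN, ITLN1, COL1A1 and DCN were named after their values were seen.

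With Nutlin-3, 2 of the 8 genes rose, DRAM1 and TP53INP1, and none of the other 6 passed. That is 25% of these genes, against 18.5% of all genes (9.64% higher and 8.89% lower). In shp63 ON cells 4 of 8 passed against control: DRAM1 and ULK2 fell, and GABARAPL1 and ULK1 rose. The share among all genes was 36.2% (19.7% higher and 16.5% lower). Between shp63 ON and Nutlin-3 cells 4 of 8 differed, with DRAM1 and TP53INP1 lower and GABARAPL1 and ULK1 higher in shp63 ON, against 51.5% of all genes (27.5% higher and 24% lower). The numbers passing were near these backgrounds or, with 8 genes, too few to read against them, and they are not a result about the list. By size of change, DRAM1 ranked 119th of all genes between shp63 ON and Nutlin-3 cells. Against control it ranked 323rd in shp63 ON and 890th with Nutlin-3. TP53INP1 ranked 120th with Nutlin-3 and 18330th in shp63 ON against control, and 174th between shp63 ON and Nutlin-3. The Nutlin-3 count became 2 higher and 2 lower with quantile or cyclic loess normalization, and without control replicate 2 only 2 of 8 passed in shp63 ON against control.

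**Figure D1:**
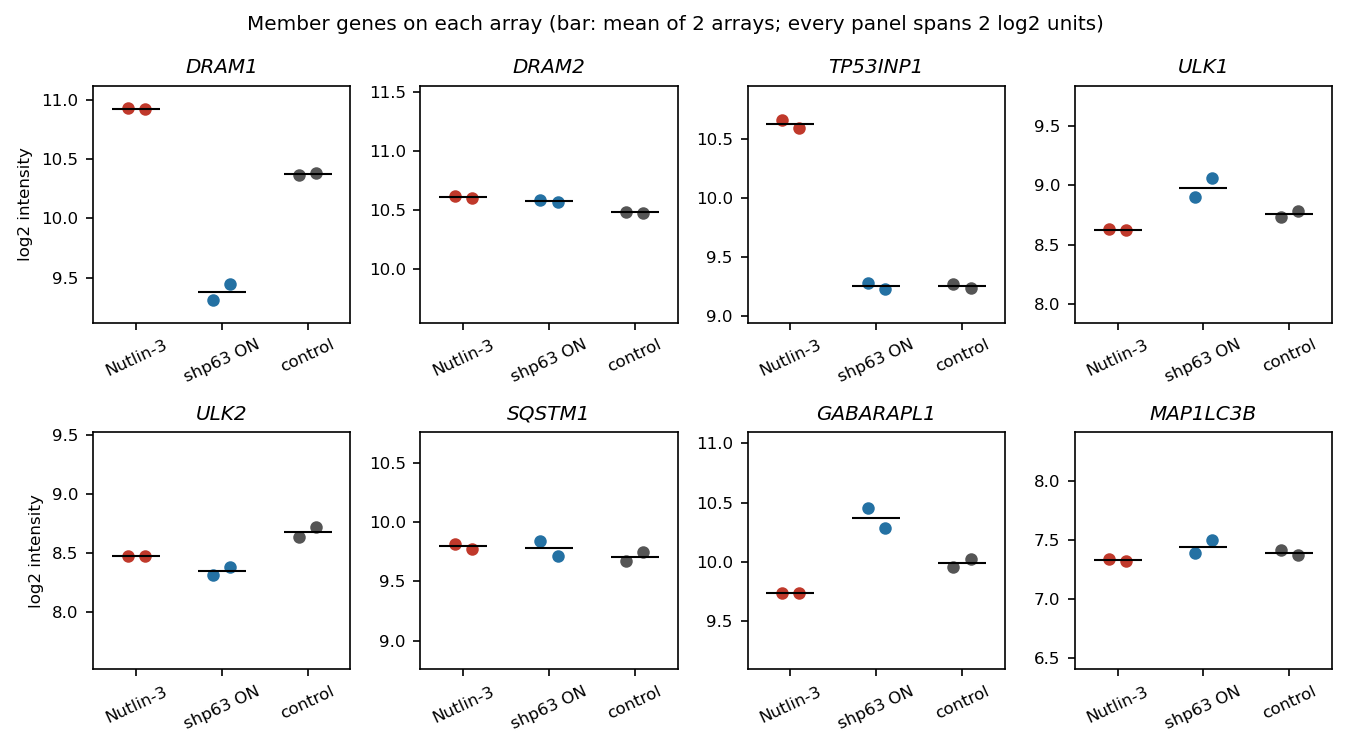
Log2 intensity of each of the 8 genes (vertical axis, every panel spanning 2 log2 units) on the arrays of the Nutlin-3, shp63 ON and control groups (horizontal axis). Each point is 1 array and each bar the mean of 2. DRAM1 separates all 3 groups, TP53INP1 is high with Nutlin-3 only among these groups, and DRAM2, SQSTM1 and MAP1LC3B span less than 0.2 over the 6 arrays.

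DRAM1 had the widest span of the 8 genes. Its log2 intensity was 10.93 and 10.92 with Nutlin-3 and 9.31 and 9.45 in shp63 ON, against 10.37 and 10.38 in control. Nutlin-3 arrays were thus the highest, shp63 ON arrays the lowest, and no groups overlapped. With Nutlin-3 it rose 1.47-fold (log2 difference 0.55, SE 0.07, 95% interval 0.39 to 0.71, limma adjusted p = 0.00166). In shp63 ON cells it fell to an average of 9.38 ± 0.10 (SD, n = 2), against 10.37 ± 0.01 in control (n = 2), a log2 difference of −0.997 (SE 0.07, 95% interval −1.16 to −0.84, limma adjusted p = 7.41e-05). Set against Nutlin-3 cells, shp63 ON cells were lower by a log2 difference of −1.55 (SE 0.07, limma adjusted p = 8.51e-06), and 0.641% of genes differed by more. Genes within 0.5 of its level had a median difference of −0.06 in shp63 ON against control. All 3 calls held in every one of 18 alternative settings. Summed squamous and basal epithelial markers took the same order of groups. The log2 of the summed intensity of the 10 measured was 15.10 to 15.15 with Nutlin-3 and 14.61 to 14.62 in shp63 ON, against 14.83 to 14.86 in control. Single markers differed in direction, with 4 higher and 1 lower with Nutlin-3 and 1 higher and 6 lower in shp63 ON. Their part in the result was not tested.

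TP53INP1 gave the largest rise with Nutlin-3 among the 8. Its log2 intensity was 10.66 and 10.59 with Nutlin-3 and 9.28 and 9.23 in shp63 ON, against 9.27 and 9.24 in control. The Nutlin-3 arrays stood apart, and the shp63 ON arrays overlapped those of control. The summed mesothelial markers, 7 of 8 measured, were also highest with Nutlin-3, at 11.33 to 11.40, with 11.02 to 11.06 in shp63 ON, against 10.9998 to 11.04 in control. Only 1 of the 7 passed with Nutlin-3. The largest difference was 0.68, in BNC1 (10.48 and 10.55, against 9.83 and 9.84 in control), and the lowest −0.18, in WT1. In shp63 ON 3 of the 7 were higher and 1 lower. BNC1 and WT1 were named after their values were seen, and the part of these markers in the result was not tested. TP53INP1 rose 2.58-fold with Nutlin-3 (log2 difference 1.37, SE 0.06, 95% interval 1.22 to 1.52, limma adjusted p = 1.57e-05). For shp63 ON against control the difference was 0.00, with a 95% interval of −0.15 to 0.15 (SE 0.06, limma adjusted p = 0.989). The direct comparison of shp63 ON with Nutlin-3 gave −1.37 (SE 0.06, limma adjusted p = 9.97e-06). DRAM1 and TP53INP1 therefore shared a rise with Nutlin-3, while in shp63 ON cells DRAM1 lay below control and TP53INP1 did not differ detectably from it.

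DRAM2 moved little. It stood at 10.62 and 10.61 with Nutlin-3 and at 10.59 and 10.57 in shp63 ON, against 10.49 and 10.48 in control. Both treated groups lay above control without overlap, yet by only 0.13 (95% interval −0.01 to 0.27, limma adjusted p = 0.167) and 0.10 (95% interval −0.04 to 0.24, limma adjusted p = 0.238). It passed in 2 of 18 alternatives in each comparison: with Nutlin-3 by analysis of variance without moderation (adjusted p = 0.0274) and with a trend in eBayes (0.0499), and in shp63 ON by analysis of variance (0.0261) and with cyclic loess (0.19, adjusted p = 0.0446). Groups of 2 arrays did not overlap for 60.5% of all genes with Nutlin-3 and for 71.7% in shp63 ON, and for 76.7% between shp63 ON and Nutlin-3, so separation of this kind is common here.

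**Figure D2:**
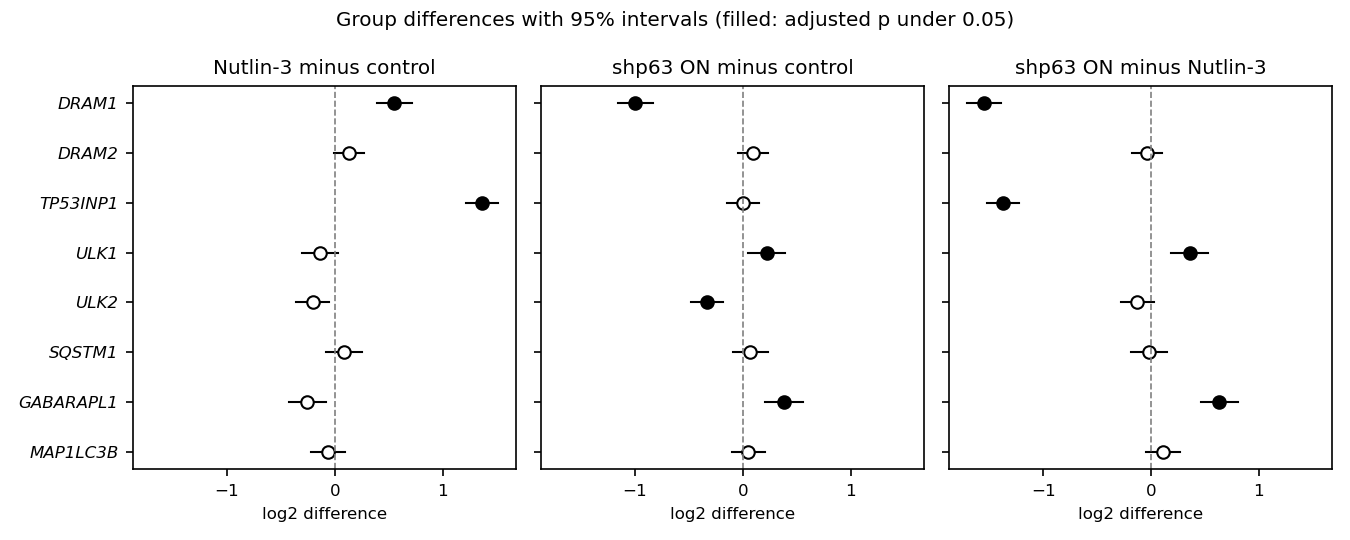
Log2 differences of the 8 genes (horizontal axis) for Nutlin-3 minus control, shp63 ON minus control and shp63 ON minus Nutlin-3, with 95% intervals from limma as lines. Filled points have an adjusted p under 0.05. DRAM1 lies at 0.55, −0.997 and −1.55 in the 3 panels, and GABARAPL1 at −0.25, 0.38 and 0.64.

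The ULK kinases open the pathway by phosphorylating the proteins that start the membrane. ULK1 was 8.63 and 8.62 with Nutlin-3 and 8.90 and 9.06 in shp63 ON, against 8.73 and 8.79 in control. The order shp63 ON, control, Nutlin-3 showed no overlap between groups. The rise in shp63 ON against control was small (log2 difference 0.22, SE 0.07, limma adjusted p = 0.0486) and fell short of the threshold in 11 of 18 alternatives, among them without control replicate 1 (0.20, adjusted p = 0.188), control replicate 2 (0.25, adjusted p = 0.122), shp63 ON replicate 2 (0.14, adjusted p = 0.221) or either Nutlin-3 array (0.22, adjusted p = 0.0603), and with a replicate block (adjusted p = 0.0519). Between shp63 ON and Nutlin-3 the difference of 0.36 (SE 0.07, limma adjusted p = 0.00499) held in all 18. For Nutlin-3 against control it was −0.14 (95% interval −0.31 to 0.03, adjusted p = 0.242).

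ULK2 had another order of groups. It measured 8.47 and 8.47 with Nutlin-3 and 8.31 and 8.38 in shp63 ON, against 8.63 and 8.72 in control. Control arrays were the highest and shp63 ON arrays the lowest. It fell in shp63 ON by 0.33 on the log2 scale (SE 0.07, 95% interval −0.49 to −0.18, limma adjusted p = 0.0074), which missed the threshold without control replicate 2 (−0.29, adjusted p = 0.0578). With Nutlin-3 the difference was −0.20 (95% interval −0.36 to −0.05) at an adjusted p of 0.0694, and it passed in 4 of 18 alternatives. Whether the 2 kinases responded differently was not tested as such.

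SQSTM1 did not pass in any comparison. It had 9.82 and 9.78 with Nutlin-3 and 9.84 and 9.72 in shp63 ON, against 9.67 and 9.75 in control. The shp63 ON arrays overlapped those of control. Its log2 differences were 0.09 with Nutlin-3 (95% interval −0.08 to 0.25, limma adjusted p = 0.453), 0.07 in shp63 ON (95% interval −0.10 to 0.23, adjusted p = 0.48) and −0.02 between shp63 ON and Nutlin-3 (95% interval −0.18 to 0.15, adjusted p = 0.868).

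GABARAPL1 encodes an ATG8 protein, and its groups stood in the reverse order of those of DRAM1. It read 9.73 and 9.74 with Nutlin-3 and 10.45 and 10.29 in shp63 ON, against 9.96 and 10.02 in control. The shp63 ON arrays were the highest and the Nutlin-3 arrays the lowest, with no overlap. It rose 1.30-fold in shp63 ON (log2 difference 0.38, SE 0.07, 95% interval 0.21 to 0.56, limma adjusted p = 0.00711). It was higher in shp63 ON than with Nutlin-3 by 0.64 (SE 0.07, 95% interval 0.46 to 0.81, limma adjusted p = 0.000415), a difference that held in all 18 alternatives. With Nutlin-3 it stood 0.25 below control (log2 difference −0.25, SE 0.07, 95% interval −0.43 to −0.08), just short of the threshold (adjusted p = 0.0528), and it passed in 7 of 18 alternatives, among them without shp63 ON replicate 1 or 2 (adjusted p = 0.0456 each). Summed endothelial markers took the same order of groups, as did CDH5 and VWF by their means, but PECAM1 and KDR did not. PECAM1 was 5.06 and 5.08 in shp63 ON against 5.22 and 5.02 in control, and KDR 5.29 and 5.22 against 5.51 and 5.23. The log2 of the summed intensity of all 4 was 8.54 to 8.58 with Nutlin-3 and 9.34 to 9.50 in shp63 ON, against 8.92 to 9.001 in control, of which the highest was CDH5 (8.10 and 8.07 with Nutlin-3 and 9.21 and 9.03 in shp63 ON, against 8.58 and 8.52 in control), while PECAM1 stayed at or below 5.22. With Nutlin-3 1 of the 4 fell, and in shp63 ON 2 of 4 rose. The summed leukocyte markers (5 of 6 measured) were 7.65 to 7.75 with Nutlin-3 and 8.0004 to 8.09 in shp63 ON, against 7.75 to 7.77 in control, with CD14 the 1 of 5 that rose in shp63 ON (0.62, SE 0.08, limma adjusted p = 0.00131). The 5 fibroblast markers were 8.89 to 8.90 with Nutlin-3 and 9.06 to 9.11 in shp63 ON, against 8.94 to 8.95 in control. The part of these markers in the result was not tested. All groups were the H226 line, so these lists do not count other cell types. Bulk RNA does not show whether a level changed in all cells or in some of them.

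MAP1LC3B, the gene of LC3B, did not pass either. It showed 7.34 and 7.32 with Nutlin-3 and 7.39 and 7.50 in shp63 ON, against 7.42 and 7.37 in control. The shp63 ON arrays overlapped those of control. Its differences were −0.06 with Nutlin-3 (95% interval −0.22 to 0.09, limma adjusted p = 0.573), 0.05 in shp63 ON (95% interval −0.11 to 0.21, adjusted p = 0.589) and 0.11 between shp63 ON and Nutlin-3 (95% interval −0.04 to 0.27, adjusted p = 0.198).

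The promoters of DRAM1 and GABARAPL1 are shown because GABARAPL1 had the widest span among the 3 genes whose differences opposed those of DRAM1 in sign in each comparison, the others being ULK1 and MAP1LC3B. MAP1LC3B passed in no comparison. A probe set naming it together with its copy MAP1LC3B2 took the signs of DRAM1 (0.12, −0.05 and −0.17), also without passing. The 250 bases before each start come from RefSeq, build GRCh38.p14, plus strand, at chr12:101877330-101877579 for DRAM1 and chr12:10212627-10212876 for GABARAPL1. Capitals mark matches, on either strand, to 4 motifs: the p53 half-site, TGACGTCA (the cAMP response element), CACGTG (the E-box at the core of the lysosomal gene element bound by TFEB) and GGGCGG (the GC box).
DRAM1: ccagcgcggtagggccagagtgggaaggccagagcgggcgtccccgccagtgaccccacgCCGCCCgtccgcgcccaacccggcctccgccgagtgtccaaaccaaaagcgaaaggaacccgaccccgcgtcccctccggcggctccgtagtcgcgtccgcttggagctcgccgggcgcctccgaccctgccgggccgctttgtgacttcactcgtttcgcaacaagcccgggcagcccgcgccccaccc
GABARAPL1: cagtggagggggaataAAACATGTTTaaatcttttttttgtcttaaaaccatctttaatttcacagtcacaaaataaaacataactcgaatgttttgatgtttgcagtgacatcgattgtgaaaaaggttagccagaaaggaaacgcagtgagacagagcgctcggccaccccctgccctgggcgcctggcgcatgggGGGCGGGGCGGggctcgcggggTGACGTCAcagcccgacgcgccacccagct
The DRAM1 window held 1 GC box, from base −190 to −185 counted back from the start, and no match to the other 3 motifs. The GABARAPL1 window held 1 p53 half-site at −234 to −225, 1 TGACGTCA at −30 to −23, and GC boxes at −52 and −47 that share a base. Of 35116 promoter windows of this length, 5.57% held a p53 half-site, 1.65% TGACGTCA, 6.34% CACGTG and 42.64% a GC box. Of the 8 genes, 7 had an entry, with 9 windows in all, 3 of them for SQSTM1, and TP53INP1 had none. Among the 9 windows, 1 held a p53 half-site, 1 TGACGTCA, 0 CACGTG and 7 a GC box. These are letter matches in short windows and show no binding.

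Close relatives of these genes were measured on the same arrays. TP53INP2, the paralog of TP53INP1 and also an ATG8 binder, had 8.78 and 8.80 with Nutlin-3 and 10.30 and 10.29 in shp63 ON, against 8.97 and 9.09 in control. Its shp63 ON arrays were far above the rest, where those of TP53INP1 lay among control. TP53INP2 rose in shp63 ON by 1.26 (SE 0.07, limma adjusted p = 2.32e-05), and stood 1.503 above Nutlin-3 cells (adjusted p = 8.53e-06), both in all 18 alternatives. With Nutlin-3 it fell by 0.24 (SE 0.07, limma adjusted p = 0.0451), a call lost in 11 of 18 alternatives.

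TMEM150B, a DRAM family member also called DRAM3, showed 6.07 and 6.12 with Nutlin-3 and 6.89 and 6.89 in shp63 ON, against 6.34 and 6.54 in control. It fell by 0.34 with Nutlin-3 (SE 0.08, limma adjusted p = 0.0228) and rose by 0.45 in shp63 ON (SE 0.08, adjusted p = 0.00449), opposite to DRAM1 each time, with the calls lost in 5 and 1 of 17 alternatives. The rise was as small as 0.32 over these. TMEM150B values lay near the array medians of 6.57 to 6.70, which took the same order of groups as TMEM150B. The part of signal level in the result was not tested. TMEM150A gave differences of 0.30 with Nutlin-3 (adjusted p = 0.058, passing in 6 of 18 alternatives, among them without either shp63 ON array) and 0.05 in shp63 ON (adjusted p = 0.701). ULK3, a ULK relative, gave 0.15 with Nutlin-3 (adjusted p = 0.139) and −0.16 in shp63 ON (adjusted p = 0.0941, passing in 2 of 18 alternatives).

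Among the other ATG8 genes, 4 of 5 were measured. MAP1LC3C, an ATG8 protein with a part in antibacterial autophagy, had 5.61 and 5.71 with Nutlin-3 and 6.34 and 6.24 in shp63 ON, against 6.04 and 5.94 in control. It fell by 0.33 with Nutlin-3 (SE 0.07, limma adjusted p = 0.0224) and rose by 0.30 in shp63 ON (SE 0.07, limma adjusted p = 0.0172), the order of GABARAPL1, with the calls lost in 5 and 4 of 17 alternatives. The rise was as small as 0.17 over these. All MAP1LC3C values lay below the array medians, which took the same order of groups (6.57 with Nutlin-3, 6.63 to 6.64 in control, 6.69 to 6.70 in shp63 ON). The part of signal level in the result was not tested. GABARAP, GABARAPL2 and MAP1LC3A did not pass against control, with differences of −0.06, 0.16 and −0.03 with Nutlin-3 and of 0.17, 0.10 and 0.17 in shp63 ON. GABARAPL2 passed in 4 of 18 alternatives with Nutlin-3 and 3 of 18 in shp63 ON, and GABARAP in 5 of 18 in shp63 ON. GABARAP and MAP1LC3A changed sign with Nutlin-3 when arrays were centred on their medians.

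**Figure D3:**
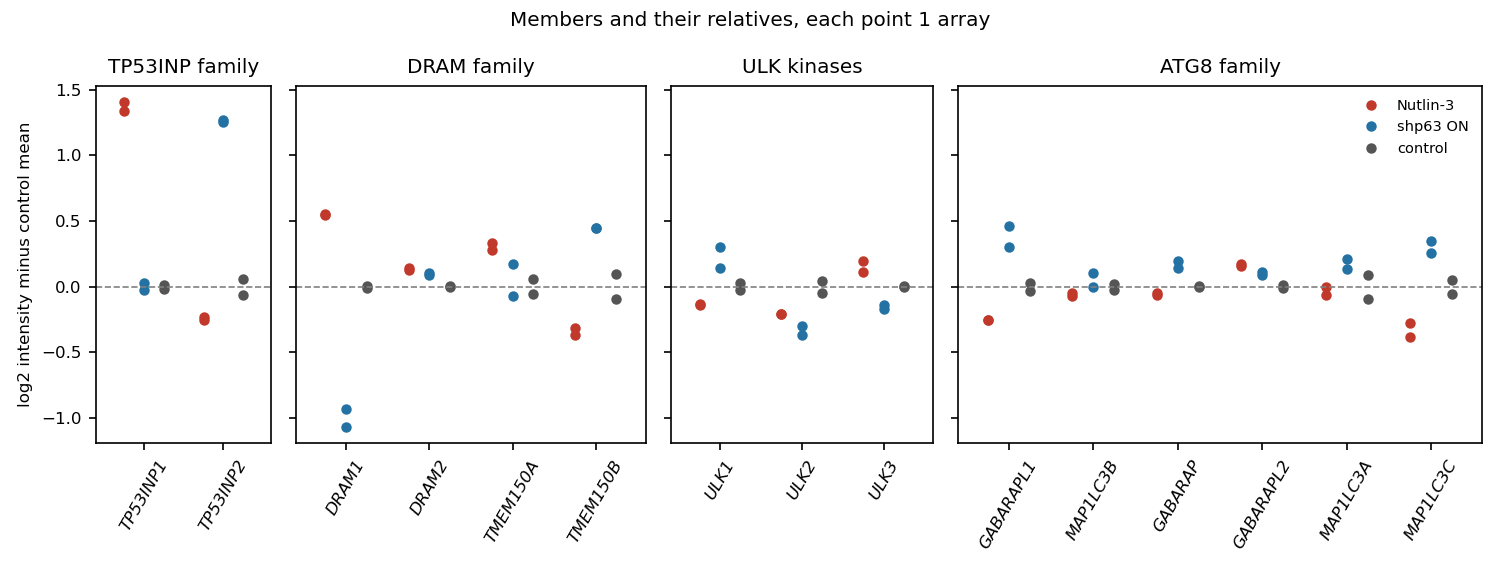
Log2 intensity of each array minus the control mean (vertical axis) for the TP53INP, DRAM, ULK and ATG8 families, with Nutlin-3 left, shp63 ON in the middle and control right at each gene. TP53INP1 stands near 1.37 with Nutlin-3, whereas TP53INP2 stands near 1.26 in shp63 ON.

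Across the wider pathway, 75 of 81 listed autophagy and lysosome genes other than the 8 were measured. With Nutlin-3, 14 rose, 4 fell and 57 did not pass, or 24% called against 18.5% of all genes. Their median log2 difference was 0.11, against 0.00 over all genes. With dim genes left out, 66 of them remained and 21 passed, against 3334 of 9202 genes, whose median was 0.03. A larger part of bright genes than of all genes passed, so these counts are not a result about the list. Fewer passed without either control or either Nutlin-3 array. This was so among all genes too, but a larger part of the calls in the list was lost. Centring arrays on their medians gave 21 higher and 2 lower, with 2609 higher and 1062 lower among all genes. In shp63 ON, 17 rose, 4 fell and 54 did not pass, or 28% against 36.2% of all genes, with a median of 0.06 against 0.04. Fewer passed without control replicate 1, control replicate 2 or shp63 ON replicate 1, again as among all genes. The split became 28 higher and 2 lower with quantile normalization, 25 and 2 with cyclic loess, and 13 and 7 with centring. Between shp63 ON and Nutlin-3, 15 were higher and 18 lower, or 44% against 51.5% of all genes. That balance turned with scaling, to 21 and 8 with quantile normalization, 22 and 12 with cyclic loess and 9 and 34 with centring, which moved the median of all genes from 0.03 to −0.10 in this comparison. The number passing also fell without Nutlin-3 replicate 1 or shp63 ON replicate 1, by a larger part than it did among all genes.

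The largest rise with Nutlin-3 in the wider list was in BNIP3, a receptor that marks mitochondria for autophagy. It averaged 10.40 ± 0.05 with Nutlin-3 and 9.81 ± 0.03 in control (SD, n = 2 each), a difference of 0.59 (SE 0.07, limma adjusted p = 0.000974). Its relative BNIP3L rose by 0.28 (SE 0.06, limma adjusted p = 0.0177). These were the 2 of 12 other cargo receptors that passed. ATG4A, a protease that trims ATG8 proteins for coupling, rose by 0.52 (SE 0.06, limma adjusted p = 0.00164), beside the coupling enzyme ATG7 (0.32, SE 0.09) and the ubiquitin-like protein ATG12 (0.27, SE 0.07), which made 3 of 11 conjugation genes. The calls of BNIP3 and ATG4A held in all 18 alternatives.

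Against 18.5% of all genes called with Nutlin-3, 9.64% of them higher, 16.7% of the other cargo receptors and 27.3% of conjugation genes were called. Of 9 genes for fusion with the lysosome, 3 rose (33.3%) and 6 did not pass: VAMP8, a fusion SNARE (0.32, SE 0.07), PLEKHM1, a tethering adaptor (0.32, SE 0.09), and VPS39, a tethering subunit (0.27, SE 0.07). Of 14 lysosomal genes, 5 rose, 8 did not pass and 1 fell (42.9% called), MITF, a transcription factor related to TFEB, named here after its value was seen. Cathepsin L, CTSL, rose most (0.40, SE 0.06, limma adjusted p = 0.00447, in all 18 alternatives), followed by the hexosaminidase subunit HEXA (0.35, SE 0.08) and the peptidase TPP1 (0.29, SE 0.07). ATG2B, a lipid transfer protein, was the 1 of 10 membrane supply genes (10%) that rose (0.25, SE 0.07, adjusted p = 0.046). The 4 genes listed under the initiation complex include ULK3, which was listed as a ULK relative and not as a subunit. Of these 4 and of 8 lipid kinase complex genes, limma called 0, with 1 in each at an unadjusted p under 0.05 (ULK3 and ATG14). Analysis of variance without moderation also called 0. Among DRAM and TP53INP paralogs 66.7% were called (2 of 3, lower), and among other ATG8 proteins 25%. With few genes in each list, these shares are not a result about the lists. Of the 16 named passing calls in the wider list with Nutlin-3, BNIP3, ATG4A and CTSL held throughout and the other 13 missed the threshold in at least 1 alternative. Of 18 alternatives, ATG2B missed it in 12, PLEKHM1 (limma adjusted p = 0.0486) in 11, MITF in 10, and ATG7, ATG12 and VPS39 in 7 each.

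In shp63 ON the largest rise outside the TP53INP family was in WIPI1. WIPI1, which binds the lipid made at the site of assembly, averaged 9.80 ± 0.00 in shp63 ON and 9.10 ± 0.01 in control (SD, n = 2 each), a difference of 0.70 (SE 0.06, limma adjusted p = 0.000198). It was 1 of 3 of 10 membrane supply genes to rise, with the scramblase ATG9B (0.42, SE 0.10) and the WIPI relative WDR45 (0.34, SE 0.08). TFEB, the transcription factor of lysosomal genes, rose by 0.41 (SE 0.07, limma adjusted p = 0.00416), as did CTSL (0.48, SE 0.06, limma adjusted p = 0.00135) and cathepsin D, CTSD (0.25, SE 0.06), while the lysosomal membrane protein LAMP2, named after its value was seen, fell by 0.25 (SE 0.07). These were 3 higher and 1 lower of 14. Of the 21 named passing calls in the wider list in shp63 ON, 7 held in all 18 alternatives, those of TP53INP2, WIPI1, TFEB, CTSL, ATG4D, RETREG1 and TEX264, and 14 missed the threshold in at least 1. Among those 14, LAMP2, UVRAG and AMBRA1 missed it in 8 of 18 each, and VPS39 and TAX1BP1 in 6 each.

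Among conjugation genes in shp63 ON, the proteases ATG4D (0.52, SE 0.07, limma adjusted p = 0.00185) and ATG4A (0.28, SE 0.06) rose, whereas ATG4C (−0.35, SE 0.08) and ATG12 (−0.27, SE 0.07) fell. Receptors of the endoplasmic reticulum RETREG1 (0.38, SE 0.07) and TEX264 (0.36, SE 0.06) rose, together with TAX1BP1, a receptor for ubiquitinated cargo (0.20, SE 0.06). In the lipid kinase complex 2 of 8 rose, the inhibitor RUBCN (0.32, SE 0.07) and the activator AMBRA1 (0.20, SE 0.06), and UVRAG fell (−0.21, SE 0.06). Of the 9 fusion genes, VPS39 alone rose (0.25, SE 0.07). Against 36.2% of all genes called in shp63 ON, 19.7% of them higher, the shares called were 30% of membrane supply, 28.6% of lysosomal, 36.4% of conjugation, 25% of other cargo receptor, 37.5% of lipid kinase complex and 11.1% of fusion genes. These lie near or below the share of all genes. Of the remaining lists, 66.7% of DRAM and TP53INP paralogs (2 of 3, higher) were called, 25% of other ATG8 proteins and 0% of initiation complex genes. With so few genes in a list, none of these shares is a result about the lists. Both comparisons use the same control arrays, so a gene that passes in each, such as CTSL, ATG4A or VPS39, is not counted as independent support.

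**Figure D4:**
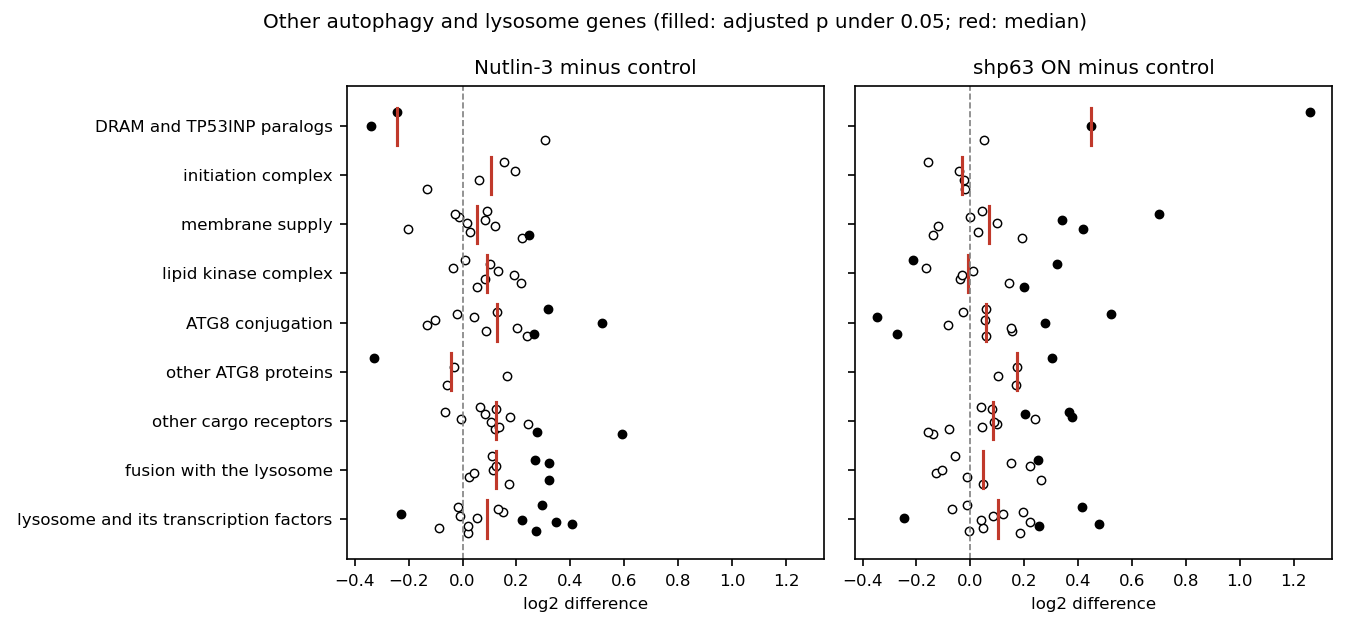
Log2 difference from control (horizontal axis) of 75 other autophagy and lysosome genes by function (rows) for Nutlin-3, left, and shp63 ON, right. Each point is a gene, filled where the adjusted p is under 0.05, and red bars are list medians. Most points lie within 0.4 of 0, with TP53INP2 at 1.26 and WIPI1 at 0.70 in shp63 ON.

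The genes most like each member were sought over the 6 arrays, by the Euclidean distance between log2 values after subtracting each gene's own mean, where 0 is an identical profile. This was done for the 3 members whose group means spanned at least 0.5. Nearest to DRAM1 were XPR1, a phosphate exporter (distance 0.18), PNP, purine nucleoside phosphorylase (0.21), and SH3PXD2A, a scaffold of invasive protrusions (0.22). Nearest to TP53INP1 were the AP-1 factor FOS (0.13), the aspartoacylase ASPA (0.13) and the macrophage growth factor CSF1 (0.14). Nearest to GABARAPL1 were ZNF775 (0.06), the ion channel HCN4 (0.07) and the homeobox gene EMX1 (0.07).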

How the data were processed

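The members and gene lists were chosen with earlier results of these data known. The authors deposited log2 intensities of 32321 probe sets, with 1 column for each array. The scale follows from the range of the values, which were not centred by gene and were used without further normalization. Array medians were 6.57 and 6.57 (Nutlin-3), 6.69 and 6.70 (shp63 ON) and 6.64 and 6.63 (control). The submitters' processing notes name Partek (version not given). For background correction, normalization and probe summary the method was not stated in the labels. Of the probe sets, 1388 name several genes and 11775 none, and the 19158 naming 1 gene were kept, of which 19128 matched a current gene by Entrez identifier. Where a gene had several, the one with the highest mean was used, giving 18404 genes. No dim gene was removed. The 3 group means were estimated together from the 6 arrays by lmFit and eBayes (limma 3.58.1, R 4.3.3), leaving 3 residual degrees of freedom, following the analysis of variance in the design text, and p-values were adjusted by Benjamini-Hochberg over all genes. The step was tested on simulated arrays in which far fewer genes changed than passed here. Recovery was required only for the largest changes put in, so calls of small differences were not checked by it. Named genes were all members, their paralogs, up to 3 passing genes per list and comparison with control by size of change, and the nearest profiles. Promoter motifs were chosen after values were seen. Figures used matplotlib 3.10.9. The 18 alternatives changed the normalization, probe rule, filter, variance model, samples fitted or replicate block, or left out 1 array.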

Additional observations from a re-analysis of the deposited data

How the results depend on the processing

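In all, 18 alternatives were run, 6 of which leave out 1 array. The member count with Nutlin-3 was 4 with quantile normalization, 4 with cyclic loess, 4 with dim genes left out and 5 with a trend in eBayes, and 2 to 3 with 1 array left out. In shp63 ON against control it was 2 to 4 with 1 array left out. The count of other autophagy genes with Nutlin-3 was 7 by analysis of variance without moderation, 3 with all probe sets tested, and 3 to 15 with 1 array left out. In shp63 ON against control it was 13 by analysis of variance, and 10 to 23 with 1 array left out. Between shp63 ON and Nutlin-3 it was 18 to 26 with 1 array left out. GABARAPL1 in shp63 ON against control missed the threshold by analysis of variance alone (adjusted p = 0.063). Signs turned where differences lay near 0. With centred arrays they did so for TP53INP1 (−0.060), MAP1LC3B (−0.0110) and TMEM150A (−0.0114) in shp63 ON against control, for MAP1LC3B between shp63 ON and Nutlin-3 (−0.0106), and for GABARAP (0.0049) and MAP1LC3A (0.030) with Nutlin-3. With quantile normalization and cyclic loess they did so for DRAM2 (0.067 and 0.076) and SQSTM1 (0.11 and 0.095) between shp63 ON and Nutlin-3 and for MAP1LC3A with Nutlin-3 (0.015 and 0.011), and with cyclic loess for MAP1LC3B in shp63 ON (−0.00075). With 1 array left out TP53INP1 in shp63 ON ran from −0.024 to 0.027, MAP1LC3B from −0.0051 to 0.11, TMEM150A from −0.070 to 0.17, SQSTM1 between shp63 ON and Nutlin-3 from −0.080 to 0.048 and MAP1LC3A with Nutlin-3 from −0.12 to 0.060. The cause was not tested for any of these. With the replicate number as a block, 2, 3 and 4 members passed, ULK1 being the call lost, and 14, 20 and 28 other autophagy genes. The order is Nutlin-3 and shp63 ON against control, then shp63 ON against Nutlin-3. Of all 18404 genes, 3097, 6530 and 9405 passed in this setting. Same-numbered arrays deviated together at r = 0.11 (Nutlin-3 and shp63 ON), −0.06 (Nutlin-3 and control) and −0.02 (shp63 ON and control), which does not show the numbers to pair the arrays, and the labels do not say whether same-numbered arrays share a batch. With dim genes left out MAP1LC3A, MAP1LC3C, TMEM150B and ATG9B had no value, and low signal limits what can be seen of them.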

Other observations

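A further probe set names MAP1LC3B together with its near-identical copy MAP1LC3B2 and was left out by the rule on single genes. It stood at 10.94 and 11.04 with Nutlin-3 and at 10.80 and 10.84 in shp63 ON, against 10.88 and 10.87 in control. Over all 32321 probe sets none of its differences passed in limma: 0.12 with Nutlin-3 (SE 0.07, adjusted p = 0.356), −0.05 in shp63 ON (SE 0.07, adjusted p = 0.616) and −0.17 between shp63 ON and Nutlin-3 (SE 0.07, adjusted p = 0.0996). For the probe set of MAP1LC3B alone these differences were −0.06, 0.05 and 0.11, each of opposite sign.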
